A study of Mus musculus with 6 samples.

Results

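Neuropeptide precursors, the granins packed with them and the enzymes that cut and modify them were followed in hippocampal RNA of mice injected with substance P (SP) or saline (vehicle). They are 32 genes of the 55421 in the table, taken by gene symbol. The tachykinin precursors, which include that of SP itself, were left out. All 6 libraries came from male Wild-type C57BL/6N mice aged 8 to 10 weeks, 1 library per mouse. The 3 SP mice received SP under the skin (10 µM, 100 µL) on 14 consecutive days, and the 3 vehicle mice the same volume of saline. Libraries are named by the group and replicate number of their labels.

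A neuropeptide is made as a longer precursor that enters the secretory pathway and is sorted with granins into dense-core vesicles. There the prohormone convertases cut it after pairs of basic residues, carboxypeptidase E (Cpe) trims the exposed basic residues, and Pam amidates many of the products. In the hippocampus, somatostatin, neuropeptide Y, VIP and cholecystokinin mark classes of GABAergic interneurons, whereas granule cells, mossy cells and pyramidal cells make other peptides and much of the granin content. Expression is given as CPM, counts scaled to the normalized library size, and differences as log2FC of SP relative to vehicle. The sign of every difference rests on the names of the deposited columns and their labels. No gene was targeted that could check them, and a doubt whether the group names of the columns are exchanged could not be settled from the files. Genes were tested by edgeR's quasi-likelihood test with the replicate number as a block, and Benjamini-Hochberg FDRs cover all 17069 genes tested. DEGs required FDR < 0.1 and |log2FC| > 0.3.

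A pair of related precursors is shown first because both genes had lower values in the SP libraries. Vip encodes vasoactive intestinal peptide and Adcyap1 encodes PACAP, a relative of VIP that shares receptors with it. The 27 codons that follow a lysine-arginine cleavage pair in each precursor matched at 62 of 81 bases, or 76.5%, and encoded the same residue at 19 positions. They lie within 1 exon of the GENCODE M21 annotation on GRCm38, Vip at chr10:5644024-5644104 (plus strand) and Adcyap1 at chr17:93203990-93204070 (plus strand). Capitals mark bases shared by the pair, and the longest shared run was 12 bases.
Vip: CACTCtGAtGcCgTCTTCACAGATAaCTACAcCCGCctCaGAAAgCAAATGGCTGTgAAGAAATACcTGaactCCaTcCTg
Adcyap1: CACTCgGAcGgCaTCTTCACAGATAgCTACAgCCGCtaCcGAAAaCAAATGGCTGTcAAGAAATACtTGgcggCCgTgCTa
The somatostatin gene Sst and its relative cortistatin, Cort, are shown because both were lowest of the 6 libraries in SP 2. In 13 codons near the end of each precursor 31 of 39 bases matched (79.5%), 21 of them in 1 run, and 11 residues were the same. These codons lie at chr16:23889732-23889770 (minus strand) for Sst and chr4:149125270-149125308 (minus strand) for Cort.
Sst: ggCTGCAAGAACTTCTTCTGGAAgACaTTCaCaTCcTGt
Cort: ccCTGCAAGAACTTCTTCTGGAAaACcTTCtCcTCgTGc

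The cAMP response element (CRE), bound by CREB and well known from the Sst promoter, was searched in RefSeq promoter windows of GRCm38.p6, from 250 bases before to 50 bases after the annotated start. Both strands were read for the full element TGACGTCA and for CGTCA, the end that every full element also holds. The windows matched 26 of the 32 genes, and Cpe, Crh, Grp, Penk, Pnoc and Vgf had no window. These 26 genes have 29 windows. The full element stood in 5 of the 29 (17.2%) and in 588 of all 32851 windows (1.79%). CGTCA stood in 17 of the 29 (58.6%) and in 20.8% of all windows. The genes with the full element were Cartpt, Chgb, Pcsk1, Scg2 and Sst, printed on the strand of the gene with 10 bases on each side and the element in capitals.
Cartpt, chr13:99900778-99900805 (minus strand): cggcgggcatTGACGTCAaacggcagcg
Chgb, chr2:132781560-132781587 (plus strand): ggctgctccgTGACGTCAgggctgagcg
Pcsk1, chr13:75089769-75089796 (plus strand): caggtagatcTGACGTCAagagatggct
Scg2, chr1:79440077-79440104 (minus strand): gctgagccggTGACGTCAgcgtggaatg
Sst, chr16:23890875-23890902 (minus strand): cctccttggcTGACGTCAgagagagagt
A match of letters is a description and not evidence of binding. In all of these but Pcsk1 a GENCODE transcript starts farther upstream, so that the stretch lies in an annotated exon. These 5 genes did not share a direction below, since Chgb was higher and Pcsk1 lower in the SP libraries at an unadjusted p under 0.05 and the other 3 did not pass it.

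The libraries held 22349964 to 27605935 counts, and pairs of libraries correlated across genes at a Pearson's r of 0.985 to 0.992 (log2 CPM). Markers of dentate granule cells (9 of 9) and of CA3 pyramidal cells (7 of 7) had enough counts to be tested. So had those of neocortical layers (8 of 8), layer 6b and subplate (6 of 6), striatal neurons (8 of 8) and choroid plexus (8 of 8). Of 6 thalamic and habenular markers 5 were tested. Being tested therefore cannot check the hippocampal label. The dentate list summed to 118.7%, 137% and 90% of the vehicle mean in SP 1, 2 and 3. Of 10 hypothalamic markers Hmx2 had no count, and only Avp and Nkx2-1 were tested. Their log2FCs were 1.57 and 0.32, and the interval of Nkx2-1 included 0. The list summed to 173.5%, 185.6% and 129.1% of the vehicle mean in SP 1, 2 and 3, at no more than 2.32 CPM. In vehicle libraries it summed to 81.1% to 119.4%. Whether hypothalamic tissue differed between libraries was not tested. SP 2 stood apart from the other libraries in the peptide genes. It held the lowest of the 6 values for 18 of the 31 tested peptide genes (58.1%) and the highest for 4 (12.9%), against 21.7% and 24.4% of all tested genes. Vehicle 2, which has the same replicate number, held the highest value for 10 of the 31 (32.3%, against 13.5% of all tested genes). These counts, and the values without SP 2 below, were chosen after the values were seen. Fits without SP 2 had no block.

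None of the 31 tested peptide genes was a DEG by edgeR's test, and 0.0293% of all genes tested were. The lowest FDR among them was 0.338, for Pcsk5. At an unadjusted p under 0.05, Cck, Chgb and Nmb were higher in SP libraries (9.68% of the 31, against 4.48% of all genes tested). Vip, Adcyap1, Pcsk1 and Pcsk5 were lower (12.9%, against 5.59% of all genes). Without SP 2, Adcyap1 and Pcsk5 were the lower genes at this threshold, and Cck, Nmb and Pcsk1n the higher ones. DESeq2 and limma-voom with the same block called none of them either, and 36 and 2 of all 17069 genes. They had 4 and 7 of the peptide genes under an unadjusted p of 0.05. DESeq2 gave no adjusted p to Adcyap1 and Nmb, so it could not call these.

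The 3 values of a group all lay above those of the other for Cck, Chgb and Nmb, higher in SP, and for Adcyap1, Pcsk5 and Pam, lower in SP. Each set of 3 is 9.68% of the tested peptide genes, close to the 9.19% and 9.03% of all tested genes that were apart in those directions. An exact permutation test of 3 against 3 mice cannot go below p = 0.1. The median log2FC of the 31 genes was -0.09, and that of all genes tested was 0.00. Without SP 2 the median was -0.02.

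**Figure D1:**
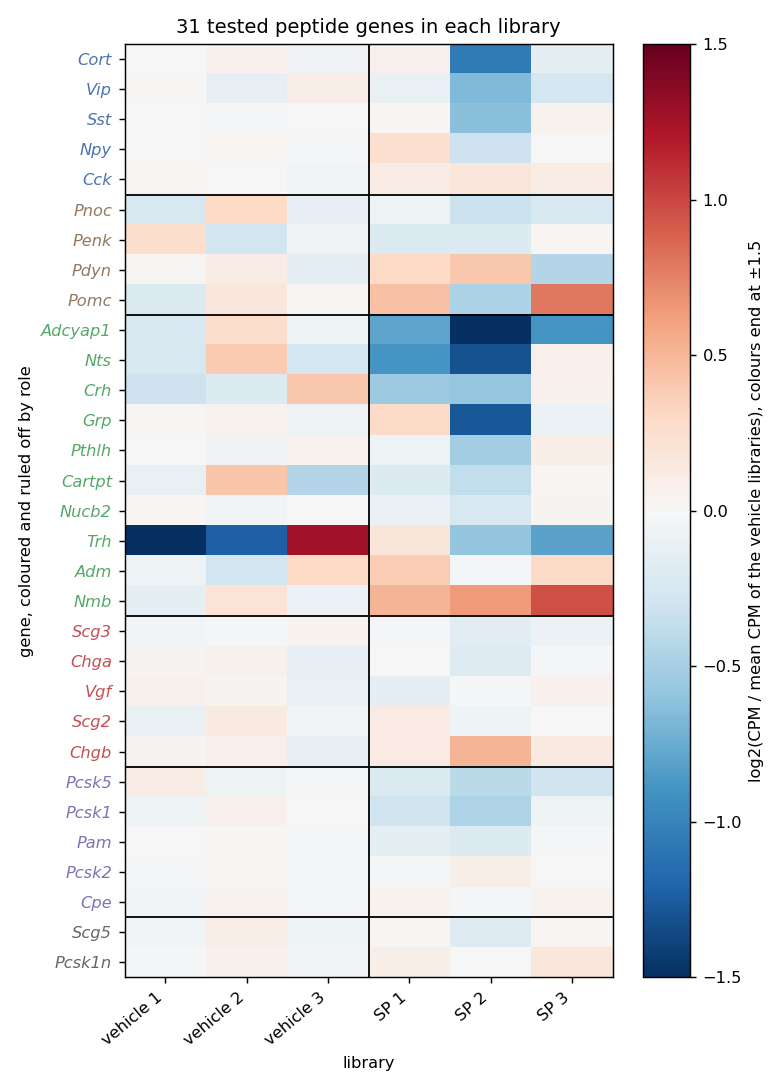
CPM of the 31 tested peptide genes in each library, as log2 of its ratio to the vehicle mean, with genes on the vertical axis ordered by role and libraries on the horizontal axis. The SP 2 column holds the lowest value for 18 genes, and the colours end at 1.5 on either side, so that Adcyap1 in SP 2 is off the scale.

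**Figure D2:**
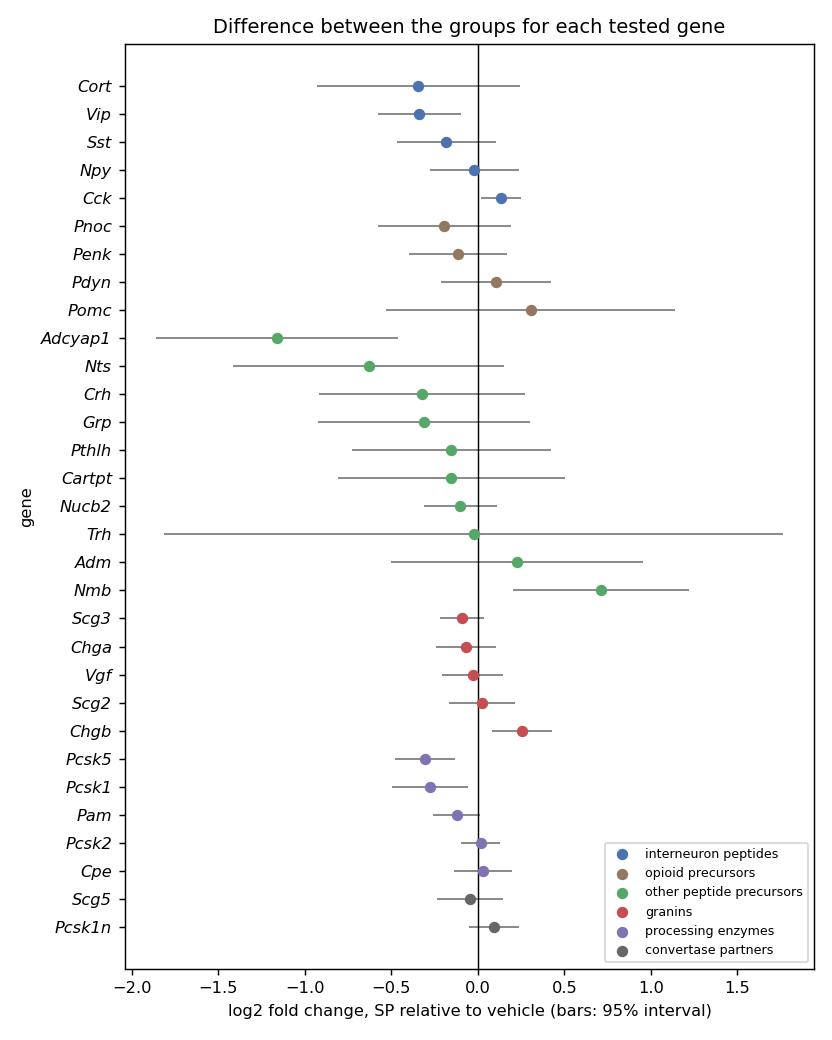
Fitted log2FC of SP relative to vehicle (horizontal axis) for each tested peptide gene (vertical axis), with 95% intervals as bars and colours for roles. The intervals of Adcyap1, Vip, Pcsk5 and Pcsk1 lie below 0 and those of Nmb, Chgb and Cck above 0, and Trh has the widest.

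Among the interneuron peptides, Cck was higher and Vip lower in SP libraries at an unadjusted p under 0.05, and Sst, Npy and Cort were low in SP 2. Cck encodes cholecystokinin, made by a class of basket cells and also by pyramidal cells. Its CPM was 178, 175 and 169 in vehicle 1, 2 and 3, and 189, 196 and 189 in SP 1, 2 and 3. All SP values lay above all vehicle values, by a narrow margin. The means were 174 ± 4.60 and 191 ± 4.22 (SD, n = 3), and edgeR's test gave a log2FC of 0.13 (SE 0.0497, FDR = 0.441).

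Vip, which marks interneurons that largely contact other interneurons, was at 14.5, 13.2 and 15.3 CPM in the vehicle libraries and at 13.3, 9.09 and 12.0 in the SP libraries. SP 1 lay within the vehicle values and SP 2 and SP 3 below them. The log2FC was -0.34 (SE 0.103, interval -0.58 to -0.10, FDR = 0.404 by edgeR). Vip was lower in 3 of 3 pairs of mice with the same number, by -0.13, -0.54 and -0.36 on the log2 scale. Without SP 2 its log2FC was -0.19 and the unadjusted p was 0.0832.

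Sst, the somatostatin precursor of dendrite-targeting interneurons, was at 139, 136 and 138 CPM in the vehicle libraries and at 139.9, 88.9 and 142 in SP 1, 2 and 3. SP 1 and SP 3 lay above every vehicle value, whereas SP 2 was at 63.9% of the mean of the other 5 libraries. The fitted log2FC was -0.18 (interval -0.47 to 0.10, FDR = 0.656 by edgeR) and turned to 0.04 without SP 2. Npy, the neuropeptide Y precursor, was at 26.9, 27.4 and 26.2 CPM in the vehicle libraries and at 31.8, 21.6 and 26.9 in the SP libraries. SP 1 was the highest and SP 2 the lowest of the 6, and the log2FC was -0.02 (interval -0.28 to 0.24, FDR = 0.966), turning to 0.13 without SP 2. Cort, the cortistatin precursor, was at 1.45 CPM in SP 2 and between 2.74 and 3.15 in the other libraries, and its log2FC was -0.34 with SP 2 and -0.03 without it. The levels of Sst, Npy, Vip and Cort in SP 2 were 48.6% to 77.5% of the mean of the other 5 libraries, and that of Cck was 109%.

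Markers of GABAergic interneurons moved with these peptides in SP 2. Of 13 such markers, all tested, 11 were lowest in SP 2, among them the GABA-synthesizing enzymes Gad1 and Gad2. Their summed CPM was 735 to 838 in the vehicle libraries and 635 to 797 in the SP libraries, with the 635 in SP 2. None of them was a DEG, their median log2FC was -0.06 with SP 2 and 0.04 without it, and Erbb4, a receptor of interneurons, was the 1 gene with an unadjusted p under 0.05 (log2FC -0.35, FDR = 0.315 by edgeR). Whether the share of interneurons differed in SP 2 was not tested, and in bulk tissue fewer cells of a type and less RNA per cell cannot be told apart.

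None of the 4 opioid precursors passed an unadjusted p of 0.05, and the groups overlapped in each. Penk, the enkephalin precursor, was at 26.8, 18.4 and 21.5 CPM in the vehicle libraries and at 19.0, 19.3 and 22.7 in the SP libraries. The log2FC was -0.12 (interval -0.40 to 0.17, FDR = 0.789 by edgeR). Pdyn, the dynorphin precursor of granule cells, ranged from 8.42 to 10.1 CPM in vehicle and from 6.87 to 12.3 in SP libraries. Pnoc, the nociceptin precursor, was lowest in SP 2 at 5.40 CPM and highest in vehicle 2 at 8.28. Pomc, the precursor of endorphin and melanocortins, was low, with 13 to 29 counts per library. The log2FCs of Pdyn, Pnoc and Pomc were 0.10, -0.19 and 0.31, and all 3 intervals included 0.

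Among the other peptide precursors, Adcyap1 had the largest difference of all tested peptide genes, and its groups did not overlap. Its CPM was 5.33, 7.52 and 5.95 in vehicle 1, 2 and 3, and 3.62, 1.58 and 3.37 in SP 1, 2 and 3. These values rest on 124, 186 and 164 counts in the vehicle and 85, 38 and 75 in the SP libraries. Every SP library lay below every vehicle library, with SP 2 the lowest. The means were 6.27 ± 1.13 and 2.86 ± 1.11 (SD, n = 3), so that the SP mean was 45.6% of the vehicle mean.

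The fitted log2FC of Adcyap1 was -1.16 (SE 0.298, interval -1.86 to -0.46, unadjusted p = 0.00540, FDR = 0.351 by edgeR's quasi-likelihood test). Within the 3 pairs it was -0.56, -2.25 and -0.82. Adcyap1 was a DEG with DESeq2 without the block (FDR = 0.00962), where 133 of 17069 genes were DEGs. In edgeR with no filter on low counts it was also a DEG (FDR = 0.00759). There 384 of 28039 genes were DEGs, against 5 of 17069 with the filter. The FDR of Adcyap1 was 0.101 to 0.686 in the other settings that gave one. Without SP 2 the log2FC was -0.84 and the FDR 0.245.

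Markers of other neuron types differed beside Adcyap1. Of 6 markers of layer 6b and subplate, the deepest cortical layer, 4 had an unadjusted p under 0.05. Ccn2 (log2FC -1.11), Nxph4 (-0.83) and Moxd1 (-0.47) were lower in SP, and Hs3st4 (0.15) was higher. The median log2FC of this list was -0.39, and -0.50 without SP 2, but its summed CPM, mostly Hs3st4, was 134 to 140.1 in vehicle and 129 to 137 in SP libraries. Ccn2 was at 17.2, 12.9 and 15.8 CPM in the vehicle libraries and at 8.82, 3.65 and 9.79 in the SP libraries, apart and lowest in SP 2 as Adcyap1 was. Nxph4 and Moxd1 were also lowest in SP 2, but Cplx3 and Hs3st4 of the same list were highest there. Cplx3 was at 9.34 CPM in SP 2, or 172% of the mean of the other libraries. The list therefore did not move as 1 in SP 2.

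Of 7 subiculum markers 6 were tested, with a median log2FC of -0.44, and -0.10 without SP 2. Slc17a6 (-0.48) and Tpbg (-0.53) were lower at an unadjusted p under 0.05, and 5 of the 6 were lowest in SP 2. Their summed CPM was 122 to 132 in vehicle and 86.3 to 120.1 in SP libraries. Of 7 CA3 markers, 6 were higher in SP at an unadjusted p under 0.05 and Elavl4 was lower, and the sums were 331 to 359.6 in vehicle and 367 to 408 in SP libraries. None of these markers was a DEG or had 0 counts in every library. The part of tissue composition in the Adcyap1 difference was not tested.

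Nts, the neurotensin precursor, was at 5.59, 8.69 and 5.52 CPM in the vehicle libraries and at 3.58, 2.66 and 6.96 in the SP libraries. SP 1 and SP 2 lay below the vehicle values and SP 3 among them, with a log2FC of -0.63 and an interval of -1.41 to 0.15. Without SP 2 it was -0.33. Grp, the gastrin-releasing peptide precursor, was at 7.14 CPM in SP 2 and from 16.2 to 21.0 in the other libraries, and its log2FC turned from -0.31 to 0.11 without SP 2. The level of Grp in SP 2 was 40.2% of the mean of the others, that of Nts 43.8% and that of Adcyap1 30.6%. The summed CPM of the 11 other precursors was 47.4 to 53.7 in vehicle libraries, 28.7 in SP 2, 47.6 in SP 1 and 48.3 in SP 3.

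Nmb, the neuromedin B precursor, went the other way. Its CPM was 1.33, 1.70 and 1.38 in the vehicle libraries and 2.09, 2.28 and 2.87 in the SP libraries, from 31 to 64 counts. All SP values exceeded all vehicle values, and SP 2 was neither the highest nor the lowest. The log2FC was 0.71 (SE 0.217, interval 0.20 to 1.22, FDR = 0.404 by edgeR), and the SP mean was 164% of the vehicle mean. Without SP 2 Nmb kept an unadjusted p under 0.05.

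The remaining precursors that were tested did not pass an unadjusted p of 0.05. Crh (corticotropin-releasing hormone), Cartpt (the CART peptide), Nucb2 (nesfatin), Adm (adrenomedullin) and Pthlh (parathyroid hormone-related protein) had log2FCs of -0.32, -0.15, -0.10, 0.22 and -0.15. Trh, the thyrotropin-releasing hormone precursor, had 4, 10 and 62 counts in the vehicle libraries and 25, 15 and 12 in the SP libraries, so that vehicle 3 alone set the vehicle mean. Gal, the galanin precursor, did not pass the filter on low counts, with 7, 10 and 4 counts in the vehicle and 7, 6 and 10 in the SP libraries. With no filter on low counts, its log2FC was 0.25 with an interval of -0.996 to 1.49. Giving this value for Gal was chosen after the data were seen.

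**Figure D3:**
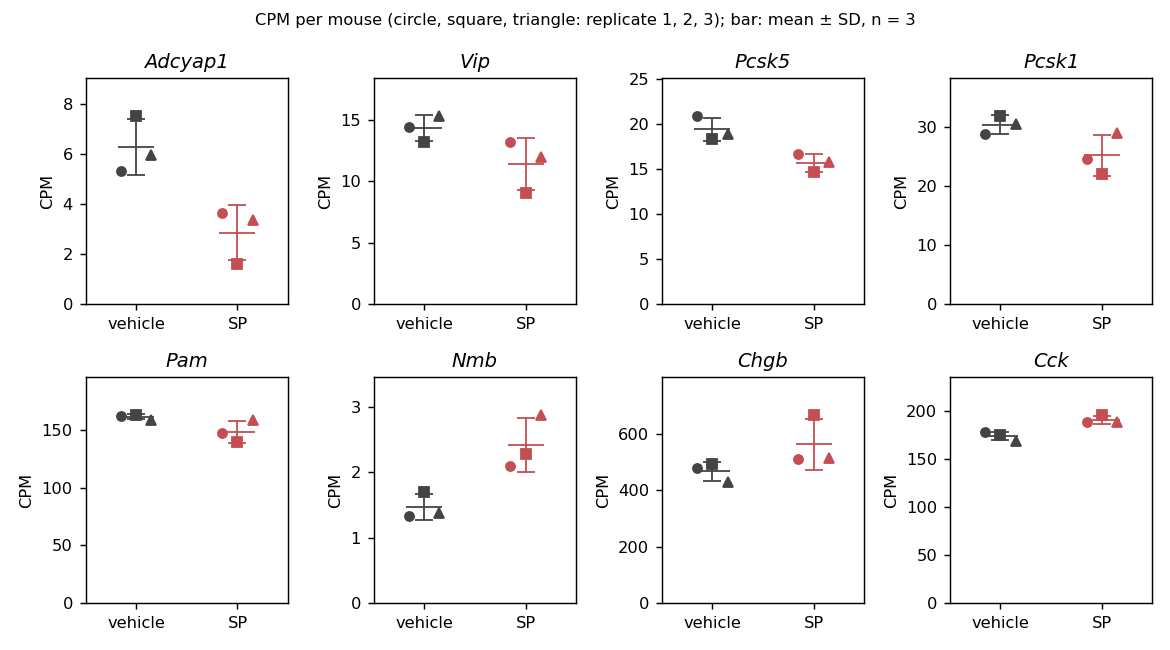
CPM (vertical axis, from 0) of the 8 peptide genes with an unadjusted p under 0.05 or with groups apart, for each mouse by group. Bars show mean ± SD (n = 3), and SP replicate 2 (square) is the lowest SP value for Adcyap1, Vip, Pcsk5, Pcsk1 and Pam and the highest for Chgb and Cck.

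Of the granins, Chgb was higher in the SP libraries at an unadjusted p under 0.05 and the other 4 did not pass it. Granins are acidic proteins that aggregate in the vesicle lumen and are themselves cut into peptides. Chgb, chromogranin B, was at 479.8, 494 and 429.7 CPM in the vehicle libraries and at 509, 667 and 512 in the SP libraries. All SP values exceeded all vehicle values, and SP 2 stood far above the rest. The means were 468 ± 33.7 and 563 ± 89.9 (SD, n = 3) with a log2FC of 0.26 (SE 0.0741, interval 0.08 to 0.43, FDR = 0.386 by edgeR). Without SP 2 the log2FC was 0.13 and the unadjusted p 0.0535.

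Vgf, a granin induced by neurotrophins and activity, was at 125, 124 and 111 CPM in vehicle and at 109, 118 and 126 in SP libraries. Scg2, secretogranin II, was at 139.6, 166 and 146 CPM in vehicle and at 164, 144 and 151 in SP libraries. Chga, chromogranin A, was at 114, 116 and 102 CPM in vehicle and at 110.5, 96.3 and 109 in SP libraries. The groups overlapped in all 3. Their log2FCs were -0.03 (interval -0.21 to 0.15, FDR = 0.926), 0.03 (-0.16 to 0.22, FDR = 0.940) and -0.07 (-0.24 to 0.11, FDR = 0.800), by edgeR. Scg3, secretogranin III, a granin-binding protein of the vesicle membrane, ranged from 205 to 219 CPM in vehicle and from 189 to 206 in SP libraries, and its log2FC was -0.09. The median log2FC of the granins was -0.03.

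Immediate early genes, with which Vgf and Scg2 share activity-dependent transcription, were compared as a list of 10. Their median log2FC was -0.08, Dusp1 was lower at an unadjusted p under 0.05 (log2FC -0.47, FDR = 0.404 by edgeR), and none was a DEG.

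Among the processing enzymes, Pcsk1 and Pcsk5 were lower in the SP libraries at an unadjusted p under 0.05 and the groups of Pam were apart, whereas Pcsk2 and Cpe overlapped. Pcsk1 encodes PC1/3, a convertase that makes the first cuts in many precursors. It was at 28.7, 31.8 and 30.6 CPM in the vehicle libraries and at 24.6, 22.0 and 28.9 in the SP libraries. SP 1 and SP 2 lay below all vehicle values and SP 3 just above vehicle 1, and the log2FC was -0.28 (SE 0.0941, interval -0.50 to -0.06, FDR = 0.424 by edgeR). It was lower in 3 of 3 pairs. Without SP 2 the log2FC was -0.18 and the unadjusted p 0.0522.

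Pcsk5 encodes PC5/6, a convertase that also cuts growth factors and surface proteins. It was at 20.9, 18.4 and 19.0 CPM in the vehicle libraries and at 16.7, 14.7 and 15.8 in the SP libraries. The groups were apart, and the pairs differed by -0.33, -0.32 and -0.27 on the log2 scale. The log2FC was -0.31 (SE 0.0746, interval -0.48 to -0.13, FDR = 0.338 by edgeR) and the unadjusted p, 0.00413, was the lowest of the peptide genes. Over all settings its log2FC stayed between -0.35 and -0.25.

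Pam, the amidating enzyme, was at 163, 163 and 159.5 CPM in the vehicle libraries and at 147, 140.1 and 159.0 in the SP libraries. The groups were apart only by the small gap between vehicle 3 and SP 3, with a log2FC of -0.12 (SE 0.0582, interval -0.26 to 0.01, FDR = 0.528 by edgeR). Pcsk2, which encodes PC2, the convertase of later cuts, was at 263, 272 and 263 CPM in the vehicle libraries and at 261, 282 and 265 in the SP libraries. Its groups overlapped, and the log2FC was 0.02 (interval -0.10 to 0.13, FDR = 0.934). Cpe was at 2012, 2154 and 2048 CPM in the vehicle libraries and at 2149, 2050.1 and 2147 in the SP libraries. Its groups overlapped too, and the log2FC was 0.03 (interval -0.14 to 0.20, FDR = 0.917).

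The convertase partners are Scg5 (7B2), a chaperone of PC2, and Pcsk1n (proSAAS), an inhibitor of PC1/3. Scg5 ranged from 155 to 174 CPM in vehicle and from 142 to 165 in SP libraries, and Pcsk1n from 241 to 258 and from 249 to 278. Their log2FCs were -0.04 and 0.09, and both intervals included 0.

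Levels between genes were compared as CPM per kb of exons. Cpe stood highest in the vehicle libraries at 794 ± 28.2 CPM per kb (SD, n = 3), followed by Sst at 191 ± 1.62, Chgb at 171 ± 12.3, Cck at 133 ± 3.52 and Pcsk1n at 113 ± 4.62. Pcsk1n did not differ from Scg5 (103 ± 6.77) beyond the spread. Of the 31 neighbouring pairs in this order, 15 had vehicle values that did not overlap. With the longest transcript as length, Cck stood second at 218, above Sst and Chgb, Scg5 stood above Pcsk1n, and Pam and Pcsk5 moved from 13.6 to 39.5 and from 1.34 to 2.70. In the tail the order was loose, with Adm (0.364 ± 0.0762) and Gal (0.360 ± 0.165) the lowest. Adcyap1 (1.66 ± 0.299) was near Nmb (1.85 ± 0.251) in vehicle. In SP libraries they were at 0.756 ± 0.295 and 3.05 ± 0.516, a reading of the differences described above on the scale of levels.

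**Figure D4:**
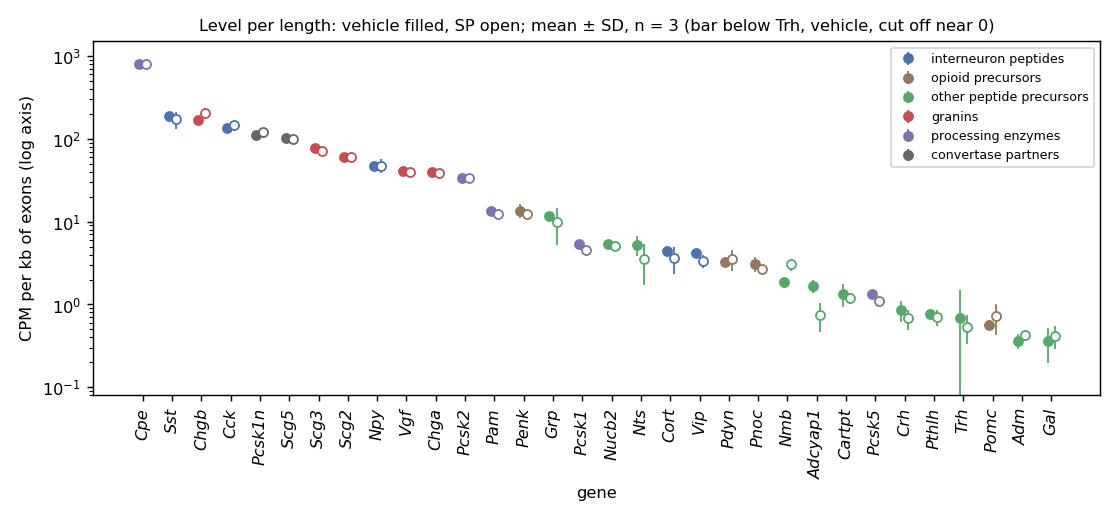
CPM per kb of exons (vertical log axis) of the 32 peptide genes, ordered by their vehicle level, with vehicle means filled, SP means open and bars for SD (n = 3). Cpe leads at 794 in vehicle libraries, and Adm and Gal lie near 0.36.

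Genes of the same pathway outside the 32 showed few differences. Of 20 other processing enzymes 19 were tested and Cpm, a membrane carboxypeptidase, was higher at an unadjusted p under 0.05 (log2FC 0.43, FDR = 0.384 by edgeR). None of the 19 was lower at that threshold, and their median log2FC was -0.02. Of 20 genes of dense-core vesicle biogenesis and release, all tested, Vps13b was lower (log2FC -0.17, FDR = 0.460 by edgeR), none was higher, and the median was 0.04. Of 34 precursors of other peptides 8 were tested, with a median of -0.05. Avp, the vasopressin precursor, was the 1 gene of these with an unadjusted p under 0.05 (log2FC 1.57, FDR = 0.450 by edgeR), at 0 to 0.430 CPM in vehicle and 0.449 to 1.15 in SP libraries. None of these genes was a DEG.

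Markers of other cell types differed between libraries too, those of oligodendrocytes most in SP 2 and those of choroid plexus most in SP 1. All 10 oligodendrocyte markers were highest in SP 2, 8 were higher in SP at an unadjusted p under 0.05, and their summed CPM was 4326 to 4863 in vehicle and 4968 to 7116 in SP libraries. The choroid plexus markers, 8 genes, summed to 3813 to 4754 CPM in vehicle libraries, 174 in SP 1, 2818 in SP 2 and 3977 in SP 3. No marker of either list was a DEG. The part of these lists in the values of the peptide genes was not tested.

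**Figure D5:**
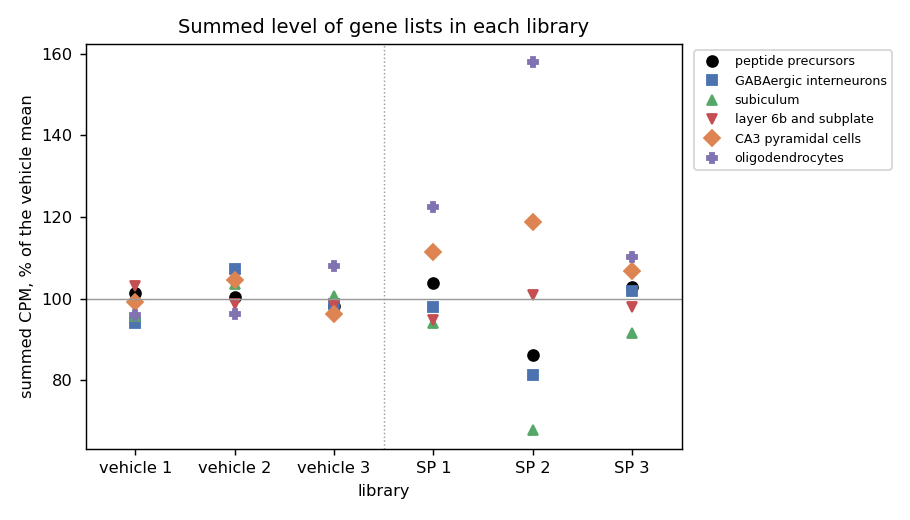
Summed CPM of the peptide precursors and of 5 marker lists in each library (horizontal axis), as a percentage of the vehicle mean (vertical axis). In SP 2 the precursors stood at 86.1%, the interneuron markers at 81.3%, the subiculum markers at 67.7% and the oligodendrocyte markers at 158%.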

How the data were processed

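The deposited table holds estimated counts per gene, 1 column per mouse, and groups follow the column names and labels, whose direction the files cannot check. The authors processed reads of stranded mRNA libraries in the Nextflow RNAseq pipeline, with TrimGalore for trimming, STAR for alignment (GRCm38) and Salmon for quantification. The annotation release is not given in the sources used here. Here the counts were rounded, and the 32 genes and all lists were chosen with earlier results of these data known. In R 4.3.3, edgeR 4.0.16 was run with filterByExpr (minimum count 10, minimum total 15), TMM normalization, glmQLFit and glmQLFTest, with the replicate number, which the labels call a batch, as a block. Deviations from the group means correlated across genes at 0.0140, -0.0656 and 0.0734 for the 3 numbers, so the pairing rests on the label and on the study's adjustment for replicates. P-values set the group difference against the variation between these 6 mice that the block leaves, estimated with information shared across genes. The fits were tested on simulated counts with the same dispersion for every gene, no replicate effect and no outlying library. Changes were simulated only in genes with higher counts. That test therefore does not cover a library like SP 2 or genes with few counts. CPM per kb used merged GENCODE M21 exons. Values for every library are given for genes with an unadjusted p under 0.05 or groups apart and for Sst, Npy, Cck, Penk, Vgf, Scg2, Chga, Cpe, Pcsk1 and Pcsk2, and from the other lists for up to 4 genes with an unadjusted p under 0.05, lowest p first. Markers described for their levels in SP 2, and Ccn2 by library, were chosen after the values were seen. Alternatives were other normalizations, filters, thresholds and lengths, limma-voom 3.58.1, DESeq2 1.42.0, no block, and leaving out libraries.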

Additional observations from a re-analysis of the deposited data

How the results depend on the processing

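With all 6 libraries and a filter on low counts, the number of DEGs among the peptide genes was 0 with edgeR, limma-voom and both other normalizations. It was 1 (Adcyap1) with DESeq2 without a replicate block, and 1 (Adcyap1) in edgeR with no filter on low counts. DESeq2 with the block gave Adcyap1 and Nmb an unadjusted p but no adjusted one. When a replicate or library was left out the number was 0 to 2, with Nts and Pcsk1 called without SP replicate 3, where 337 of all 17069 genes were. With no replicate block edgeR also called 0, with 3 higher and 5 lower at an unadjusted p under 0.05, so that in edgeR the block, which pairs mice by number, changed no DEG among these genes. The higher genes at that threshold were 1 (Chgb) with DESeq2 and the block and 2 to 5 in the leave-outs. The lower genes were 7 with no filter and 2 to 6 in the leave-outs. Genes with groups apart numbered 3 to 9 (higher) and 3 to 11 (lower) there, with fewer values to keep apart. The shares of all tested genes in these settings are not given here. These counts, and those at p under 0.05, therefore describe the settings and are not a result about the peptide genes. The median log2FC of the 31 genes was -0.176 to 0.00435 in the leave-outs and -0.02 without SP replicate 2. Of 272 alternative log2FCs of the 16 genes chosen for full statistics, 17 changed sign, all when libraries were left out and none for a gene with an unadjusted p under 0.05. The ranges were -0.153 to 0.0298 for Chga, -0.00170 to 0.0812 for Cpe, -0.153 to 0.138 for Npy, -0.0169 to 0.0386 for Pcsk2, -0.245 to 0.0741 for Penk, -0.0759 to 0.142 for Scg2, -0.297 to 0.0369 for Sst and -0.131 to 0.0548 for Vgf. With the longest transcript as length Cpe was at 978 CPM per kb. Depth limits Crh, Cort, Gal, Trh, Pomc, Nmb, Cartpt, Adm and Pthlh most, with at most 80 counts in any library.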
